A study of Homo sapiens with 2 samples.

Results

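JAK kinases sit on the inner side of cytokine receptors. When a ligand brings receptor chains together, the kinases phosphorylate one another and the receptor, STAT factors dock there and are phosphorylated in turn, and STAT dimers move to the nucleus and switch on genes that include the pathway's own SOCS inhibitors. IL6ST encodes gp130, the signalling chain shared by the receptors for IL-6, LIF and oncostatin M, and in colon epithelium the gp130, JAK1 and STAT3 route is known for its part in regeneration after injury and in tumour growth. The 9 genes followed here, JAK1, JAK2, TYK2, STAT2, STAT3, STAT5B, STAT6, SOCS3 and IL6ST, were picked by gene symbol in the probe annotation, with earlier results of these data known. A probe was found for 8 of them, out of 20046 named genes in all, and STAT2 was not analysed here. These 8 genes had 13 of the 30113 probes with a single gene symbol.

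The samples were 2 cultures of human colon cancer cells, each measured on 1 Illumina bead array. One is labelled HCT-8, an established colon cancer cell line. The other, labelled HCT-8/V, is a subline with resistance to vincristine, a drug that binds tubulin. They are called the parental and the resistant line here. The labels give both cultures the same treatment, the plasmid pcDNA3.1-Twist for 48 h, named for the gene of a transcription factor known to drive epithelial-mesenchymal transition. They name no untreated control, and whether either culture was meant as one is not settled by them. Differences are therefore given between the 2 labelled cultures, and a part of the plasmid in them cannot be told apart from that of the line. With 1 culture per line there was no replicate and no test was possible, and lines, cultures and arrays cannot be told apart. Values are deposited probe intensities on a linear scale that were already matched in distribution between the arrays, so a change shared by most genes would be hidden.

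A probe was counted as read when it was above the array's median over all probes, the floor, which was 12.44 on the parental and 12.42 on the resistant array. A higher floor, the 75th percentile of all probes (81.3 on both arrays), marked the better measured genes. Where a gene had several probes, the brightest stood for it. Among 13272 probes with a mean intensity below 0, which carry background only, the difference between the arrays had a standard deviation of 10.7 units and 99% of them differed by less than 29.0 units, which gives the size of background noise but not of errors that grow with signal. Of 13 markers of colon epithelium, 6 passed the floor on 1 array or both, with a summed intensity over all 13 of 2847 in the parental and 3024 in the resistant line. Of the 13, 3 passed the higher floor: KRT8 (2199 and 2283), KRT18 (445 and 560) and EPCAM (117 and 80.0, in HCT-8 only). The intestinal transcription factor gene CDX2 (5.32 and 2.13), the brush border gene VIL1 (-20.4 and -22.8) and the E-cadherin gene CDH1 (-4.56 and -15.3) were below the floor in both lines, so the cultures are named here by their labels only. Markers of other cell types were partly read: 2 of 5 for blood cells (summed intensity 898 and 1213), 5 of 6 for fibroblasts (922 and 1242) and 2 of 3 for endothelium (15.6 and 14.2). Above the higher floor were 1 of 5, 3 of 6 and 0 of 3. The blood cell sum came mostly from 1 gene, CD68 (844 and 1153). Their part in the differences was not tested.

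All 8 genes were above the floor in both lines, and 6 of the 8 read lower in HCT-8/V, where 47.1% of all 13763 expressed genes were lower. The genes with the larger log2 differences were the kinases JAK1 and JAK2, the receptor chain IL6ST and the inhibitor SOCS3, all lower in HCT-8/V. In units the SOCS3 gap was only 28.0, within the range of background noise. STAT3 and STAT5B were lower by little, and TYK2 and STAT6 were higher by little. The median log2 difference of the 8 genes, HCT-8/V minus HCT-8, was -0.40, against 0.03 for all expressed genes. With values raised to the higher floor 6 of 8 were still lower, against 46.4% of 8009 genes, and the median was -0.18. In bulk RNA, fewer cells making a transcript and less of it per cell cannot be told apart.

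**Figure D1:**
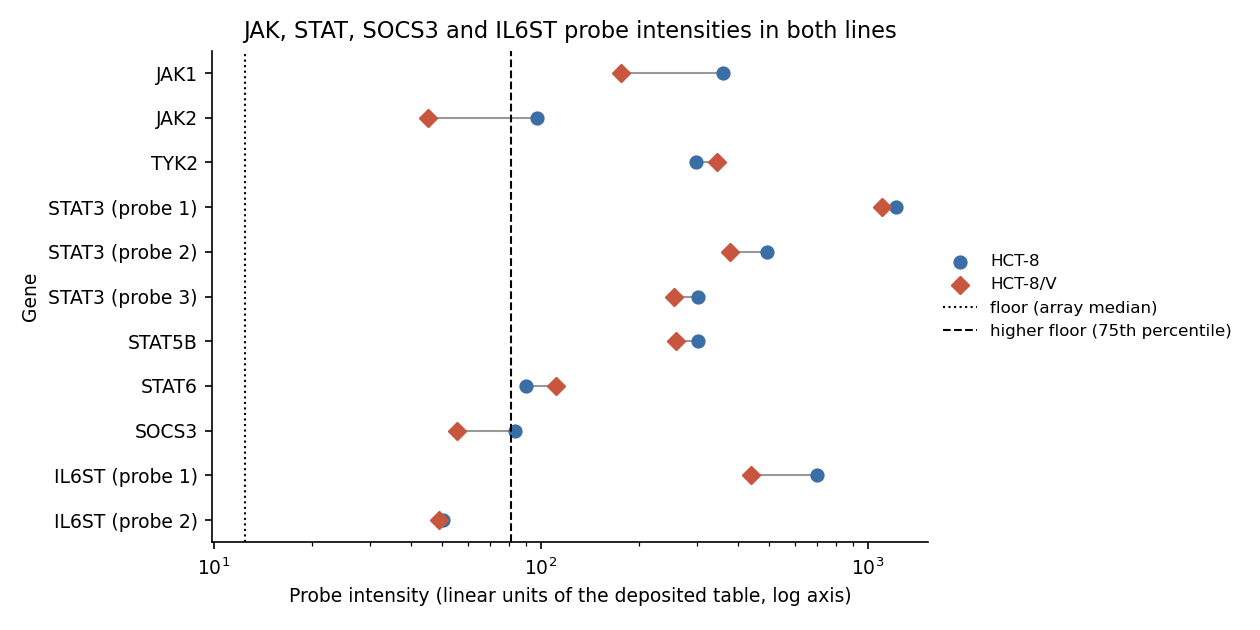
Intensity of each probe of the 8 genes that was above the floor (log axis), in HCT-8 (circles) and HCT-8/V (diamonds), 1 array each, numbered by brightness within a gene. The gap is wide for JAK1, JAK2 and the first IL6ST probe, and narrow for STAT3, STAT5B, TYK2 and STAT6. A probe each of SOCS3 and IL6ST below the floor on both arrays is not drawn.

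IL6ST, the shared receptor chain, had 3 probes that disagreed on its level and on its difference. The brightest probe, which is annotated to a GenBank record and not to a RefSeq transcript, read 703 in the parental and 441 in the resistant line. That is a log2 difference of -0.67, or 1.59-fold lower in HCT-8/V, and 1.47% of the 2928 genes with a mean intensity of 500 or more were at least as far lower. The second probe read 50.1 in the parental and 48.9 in the resistant line, a log2 difference of -0.04. The third was below 0 on both arrays, at -8.11 and -10.1. Both of these are annotated to a RefSeq transcript of IL6ST, so the lower reading in HCT-8/V rests on the brightest probe. Averaged over its probes, IL6ST had a log2 difference of -0.24.

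JAK1 encodes the kinase that pairs with gp130 and with the interferon receptors. The only JAK1 probe gave 362 in the parental and 176 in the resistant line, a gap of 186 units and a log2 difference of -1.04. At 2.05-fold it was past the 2-fold mark used here for a large difference, and it was the same at the higher floor, since both values lay above it. Of 4773 genes in the middle intensity range, from the 75th percentile up to 500, 0.545% were at least as far lower in HCT-8/V, and 0.67% were at least 2-fold lower. Over all genes above the higher floor, 0.312% were at least 2-fold lower there. With no floor and an offset of 46 units, which shrinks every fold by construction, JAK1 was -0.88 and under 2-fold.

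JAK2, the kinase of the receptors for erythropoietin, growth hormone and interferon gamma, read 97.6 in the parental and 45.1 in the resistant line on 1 probe. The log2 difference was -1.11, or 2.16-fold lower, and the gap of 52.5 units was beyond the range of background noise given above. The gene is dim, with HCT-8/V below the higher floor. In its intensity range, below the 75th percentile, 5.74% of 6062 genes were at least as far lower and 7.95% were at least 2-fold lower, although JAK2 lies near the upper end of that range. Among 1620 genes with a mean intensity from 50 to 100, a range chosen after the values were seen, 1.73% were at least as far lower. Raised to the higher floor the difference was -0.26 (at least 1.20-fold lower), and with the offset it was -0.66.

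TYK2, the kinase of the interferon alpha, IL-12 and IL-10 family receptors, went the other way. It read 298 in the parental and 345 in the resistant line, a log2 difference of 0.21, and 58.0% of genes in its intensity range differed by at least as much in either direction. JAK3, which works with the common gamma chain of lymphocyte receptors, was below 0 in both lines (-15.9 and -9.18). Thus 2 of the 3 kinase genes that were read, JAK1 and JAK2, were at least 2-fold lower. They are also the 2 of the 8 genes at least 2-fold apart, where 8.01% of all expressed genes were at least 2-fold apart in either direction and 3.77% at least 2-fold lower.

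**Figure D2:**
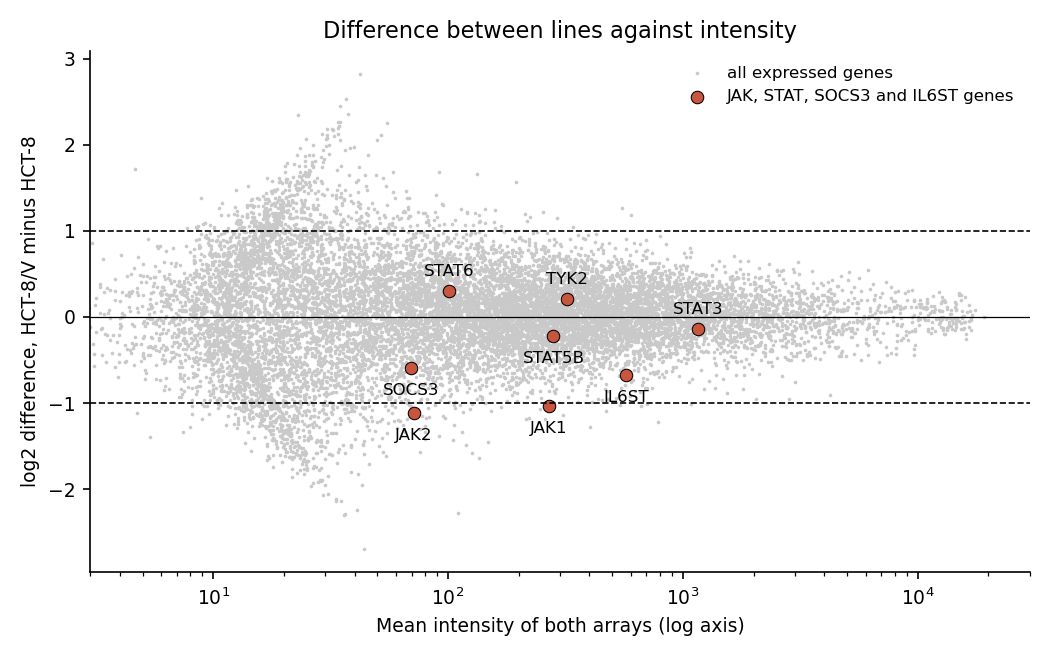
log2 difference (HCT-8/V minus HCT-8) against the mean intensity of both arrays (log axis) for every expressed gene (grey) and the 8 genes (red), with dashed lines at 2-fold. The spread of grey points widens as intensity falls: JAK1 lies at the lower edge of genes of its intensity, and JAK2 lies near the lower edge where the spread is wider. The 110 genes with a mean intensity below 3 are not drawn.

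STAT3, the main STAT of gp130 signalling, was measured by 3 probes, all above the higher floor in both lines and all lower in HCT-8/V. The brightest read 1221 in the parental and 1108 in the resistant line, a log2 difference of -0.14. The second, annotated to the same RefSeq transcript, read 493 and 378 (-0.38), and the third, annotated to another STAT3 transcript, 303 and 255 (-0.25). All 3 thus went the same way, with gaps of 1.10-fold, 1.30-fold and 1.19-fold. Of genes with a mean intensity of 500 or more, 60.8% differed in either direction by at least as much as the brightest STAT3 probe, so this difference was ordinary in size.

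STAT5B, a STAT of growth hormone and prolactin signalling, read 302 in the parental and 260 in the resistant line, a log2 difference of -0.22. Its near-identical neighbour STAT5A read 854 and 622, a log2 difference of -0.46, in the same direction. Whether either probe also binds the other gene's transcript was not checked. STAT6, the STAT of IL-4 and IL-13, read 90.3 in the parental and 112 in the resistant line, a log2 difference of 0.31. Its gap of 21.3 units was within the range of background noise. STAT4, which acts downstream of IL-12 in lymphocytes, was dim, at 30.7 and 37.9. In either direction, 57.2% of genes of the middle intensity range differed by at least as much as STAT5B and 42.5% as much as STAT6. Of the 5 STAT genes read here 3 were lower and 2 higher, where 47.1% of all expressed genes were lower. The gap was within background noise for 2 of the 5. None was at least 2-fold apart, where 8.01% of all expressed genes were.

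How far a single probe can be trusted on these arrays was measured on genes with several. In 2989 genes, 2 probes were above the floor in each line, and the 2 brightest probes agreed in direction in 56.0%. Where the brighter probe was at least 2-fold apart, 35 of 66 genes (53.0%) agreed. For the 1533 genes with both probes above the higher floor on both arrays the share was 60.3%, and it was 75.9% of 108 such genes where the brighter probe was at least 1.5-fold apart. JAK1, JAK2, TYK2, STAT5B and STAT6 had 1 probe each, so no second reading stands behind their directions. Among the genes with several probes, the 3 of STAT3 agreed in direction, while for IL6ST and SOCS3 the probes other than the brightest were nearly equal between the lines or below the floor.

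**Figure D3:**
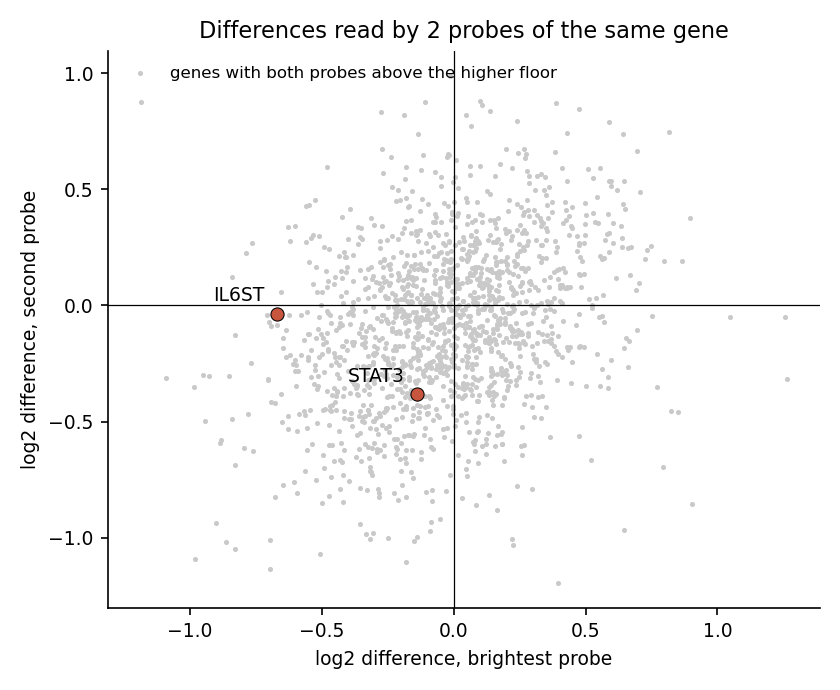
log2 difference (HCT-8/V minus HCT-8) of the second probe against that of the brightest probe, for 1533 genes with both probes above the higher floor (grey) and for STAT3 and IL6ST (red), the second IL6ST probe lying below that floor. Grey points fill all 4 quadrants, with 60.3% in the 2 where both probes have the same sign. STAT3 has the same sign on both probes, and IL6ST is far from 0 on the brightest probe only.

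SOCS3 is the inhibitor that STAT3 induces and that binds gp130 and JAKs to shut signalling off. The brighter SOCS3 probe gave 83.3 in the parental and 55.3 in the resistant line, a log2 difference of -0.59 (1.51-fold lower). The gap of 28.0 units was within the range of background noise, and 24.8% of the 1620 genes with a mean intensity from 50 to 100 differed by at least as much in either direction. The other SOCS3 probe did not pass the floor in either line (0.676 and 5.38). Raised to the higher floor the difference of the brighter probe was -0.03.

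The other SOCS genes also read lower in HCT-8/V, most of them by little in units. All 7 SOCS family genes that were read, SOCS3 included, were lower, where 47.1% of all expressed genes were, with a median log2 difference of -0.59. At least 2-fold lower was 1 of the 7, against 3.77% of all expressed genes. For 5 of the 7, SOCS3, SOCS2, CISH, SOCS1 and SOCS7, the gap was within the 29.0 units of background noise, so SOCS4 and SOCS5 carry the larger gaps. SOCS4 read 397 in the parental and 261 in the resistant line (-0.60) and SOCS5 198 and 141 (-0.49), both above the higher floor. SOCS2, an inhibitor of growth hormone signalling, was nearly equal at 485 and 483 (-0.01). The dim genes were CISH, a classic STAT5 target, at 32.8 and 14.9 (2.20-fold lower), SOCS1, which interferon gamma induces, at 32.3 and 17.0, and SOCS7 at 39.4 and 29.2. The second probe of SOCS4 turned the direction, to a log2 difference of 0.66, while those of SOCS5 (-0.46) and SOCS7 (-0.59) kept it. SOCS6 was below 0 in both lines. At the higher floor 4 of 4 were lower, where 46.4% of 8009 genes were, with a median of -0.26. Of these, SOCS2 (-0.01) and SOCS3 (-0.03) were nearly equal between the lines.

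STAT dimers bind a palindrome of TTC and GAA, most often with a spacer of 3 bases, so the 250 bases before each listed gene start were searched for TTCNNNGAA, which reads the same on both strands, and for spacers of 2 and 4 bases. Sequences are from RefSeq, build GRCh38.p14, which gave 14 windows for the 8 genes, several genes having more than 1 start. The 3-base spacer was in none of these 14 windows, against 6.57% of all 35116 windows. The 2-base spacer TTCNNGAA was in 3 of the 14, 1 each of JAK1, STAT3 and SOCS3, against 6.62% of all windows, and the 4-base spacer in none of the 14 (5.38% of all). The CISH window, by contrast, holds 4 copies of TTCNNNGAA, a number reached in 5 of all windows. A window was found for SOCS1, SOCS3, SOCS4, SOCS6 and CISH. A match describes the letters and is not evidence of binding in these cells.

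The STAT3 and SOCS3 windows are shown because these genes form the feedback pair described above, and the CISH window because it holds the 4 copies. Each is on the minus strand of the build, printed 5′ to 3′ in the direction of the gene and ending at the base before the gene start, with the matches in capitals. The STAT3 window is chr17:42388443-42388692, with the match starting 131 bases before the gene start. That of SOCS3 is chr17:78360926-78361175, for 1 of its 2 listed starts, with the match 215 bases before it. The CISH window is chr3:50611775-50612024, with matches starting 241, 230, 129 and 112 bases before the gene start.
STAT3: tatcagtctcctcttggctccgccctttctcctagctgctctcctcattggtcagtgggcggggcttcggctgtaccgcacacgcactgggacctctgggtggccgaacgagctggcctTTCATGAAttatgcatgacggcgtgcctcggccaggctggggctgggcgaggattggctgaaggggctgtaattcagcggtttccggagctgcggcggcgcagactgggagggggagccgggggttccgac
SOCS3: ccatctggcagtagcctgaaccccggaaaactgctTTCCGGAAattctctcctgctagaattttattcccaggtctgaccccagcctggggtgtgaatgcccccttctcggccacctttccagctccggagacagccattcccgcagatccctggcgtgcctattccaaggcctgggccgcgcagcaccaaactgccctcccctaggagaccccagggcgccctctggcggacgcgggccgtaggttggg
CISH: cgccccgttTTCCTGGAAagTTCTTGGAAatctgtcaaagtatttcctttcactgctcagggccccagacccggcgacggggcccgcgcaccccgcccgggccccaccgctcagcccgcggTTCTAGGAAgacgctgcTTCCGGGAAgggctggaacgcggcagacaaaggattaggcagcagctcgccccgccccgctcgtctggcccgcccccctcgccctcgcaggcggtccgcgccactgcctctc
The JAK1 match is given with its surroundings only, since its window lies downstream of other JAK1 starts.
JAK1: agtttctagaTTCTAGAAtctagagg

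Of 6 genes of the gp130 receptor family that were read, 5 were lower in HCT-8/V, against 47.1% of all expressed genes, with a median log2 difference of -0.32. IL6ST was among them on its brightest probe. For 2 of the 6, CNTFR and IL6R, both lower, the gap was within background noise. LIFR, the LIF receptor, read 570 in the parental and 426 in the resistant line (-0.42), and OSMR, the oncostatin M receptor, 146 and 88.3 (-0.72), each on 1 probe. CNTFR read 139 and 129 (-0.11). Its second probe was above the floor in HCT-8 only, so its log2 difference of -1.71 is measured against the floor. The mean over the CNTFR probes was -0.61. IL6R, the IL-6 binding chain, was near the floor at 14.4 and 4.64. IL27RA went the other way, at 97.6 and 152 (0.64). Of 6 interferon receptor genes, which signal through JAK1, JAK2 and TYK2, 5 were higher by up to 0.38 on the log2 scale, against 52.8% of all expressed genes, with a median of 0.23. The gap was within background noise for 3 of these 6. A second probe was read for 3 of them, IFNAR2 (0.15), IFNLR1 (-0.80, above the floor in HCT-8 only) and IL10RB, with a median of -0.24 over these 3. IFNGR1 read 343 and 446, IFNGR2 1224 and 1359, IFNAR1 69.2 and 89.0, and IL10RB 841 and 1044, although the second IL10RB probe went the other way (-0.24). None of these 12 receptor genes was at least 2-fold apart on its brightest probe, where 8.01% of all expressed genes were. The second CNTFR probe, read in HCT-8 only, was more than 2-fold lower.

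Among gp130 ligands, IL6 was the one above the higher floor on either array, at 113 in the parental and 74.9, below that floor, in the resistant line. Its log2 difference was -0.60, and -0.48 with values raised to the higher floor. LIF was dim and higher in HCT-8/V (19.5 and 45.6, 2.34-fold), as was OSM, the oncostatin M gene, which was above the floor only in HCT-8/V (7.42 and 23.4, at least 1.88-fold higher). Both gaps were within the 29.0 units of background noise. Of 6 ligand genes read 4 were higher, against 52.8% of all expressed genes, with a median of 0.48, and all 4 were below the higher floor.

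**Figure D4:**
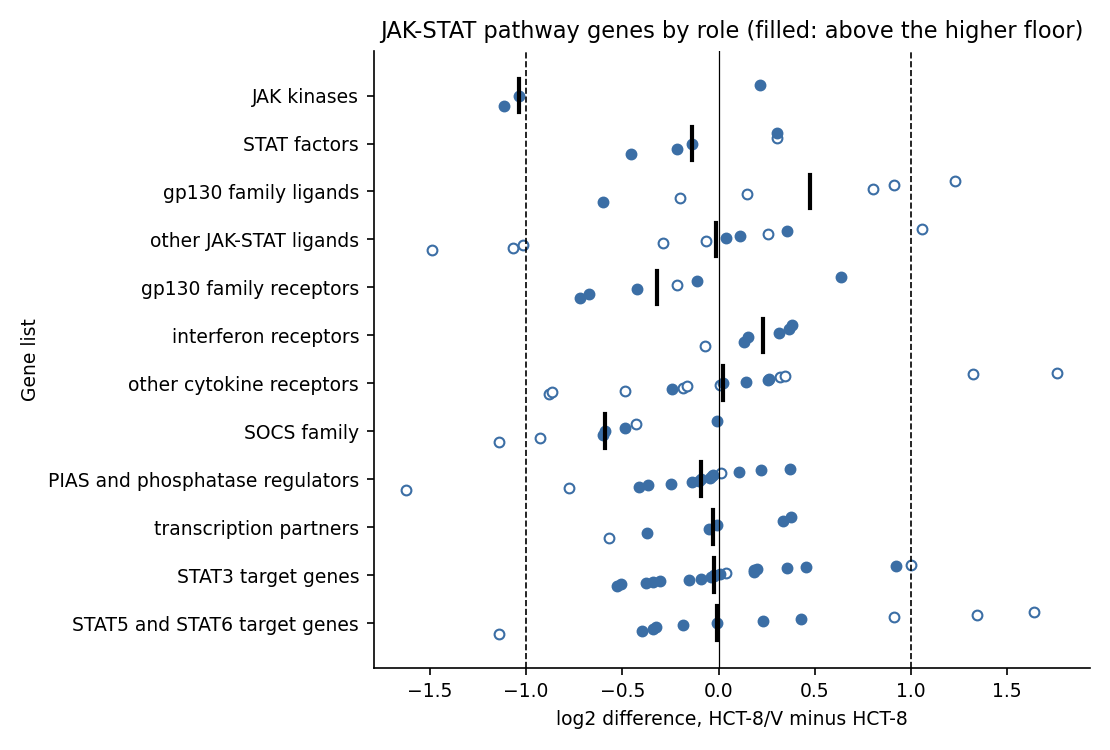
log2 difference (HCT-8/V minus HCT-8) of every expressed gene of 12 lists of pathway genes grouped by role, with the median of each list as a bar, dashed lines at 2-fold, and filled points for genes above the higher floor on at least 1 array. All 7 SOCS genes lie at or left of 0, 5 of 6 interferon receptors lie right of it, and the largest differences are mostly open points.

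Genes that STATs are known to switch on did not share 1 direction on their brightest probes. Of 19 STAT3 targets that were read, 9 were higher and 10 lower, where 47.1% of all expressed genes were lower. Their median log2 difference was -0.03. None was at least 2-fold apart, where 8.01% of all expressed genes were. BCL2L1, an inhibitor of cell death, read 3385 in the parental and 2385 in the resistant line (-0.51), and its second probe was lower as well (-1.07). The immediate early gene FOS read 307 and 213 (-0.53) and the acute phase transcription factor gene CEBPD 2717 and 2089 (-0.38). In the opposite direction, VEGFA, an angiogenic growth factor gene, read 68.5 and 130 (0.92), and TIMP1, a protease inhibitor gene, 4753 and 6519 (0.46). CEBPB read 5665 and 6496 (0.20). The list also holds VIM (5921 and 5944) and TWIST1 (163 and 185), the gene the plasmid is named for. Of 11 targets of STAT5 and STAT6 that were read, 5 were higher and 6 lower, beside the same 47.1% lower of all expressed genes. The gap was within background noise for 5 of the 11. At least 2-fold higher were 2, where 583 of all 13763 expressed genes were. At least 2-fold lower was 1, where 3.77% of all expressed genes were. The targets at least 2-fold apart were all below the higher floor. BCL6, a transcriptional repressor gene, read 1688 and 1283 (-0.40), and PIM1, a survival kinase gene, 639 and 504 (-0.34). ID1, a dominant negative regulator of transcription, read 315 and 423 (0.43). The second ID1 probe turned the direction (-0.53), and the mean of its probes was -0.05. With the mean of all probes 72.7% of the 11 were lower, and the share over all expressed genes was not computed for that measure. On second probes alone 4 of 5 STAT5 and STAT6 targets and 6 of 8 STAT3 targets were lower, where 56.9% of all 3803 genes with a second probe were. CCL26, a chemokine gene that STAT6 induces, read 155 and 124.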

How the data were processed

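RNA of 2 cultures, HCT-8 and HCT-8/V, was measured on Illumina bead arrays, 1 array each. The deposited table held 1 intensity for each of 47323 probes, and how the authors corrected background and scaled the arrays is not given in the sources used here. The values run from -45.0 to 19759 on both arrays, 29.2% of them below 0. Genes were named from the platform annotation: 30113 probes had 1 symbol, 8 several and 17202 none. Symbols were updated through Entrez gene IDs for 30074 probes with the RefSeq table of GRCh38.p14, and 39 kept the annotated symbol.

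Values below an array's median were raised to it before log2 was taken, with the brightest probe by mean intensity for each gene. A difference is HCT-8/V minus HCT-8, and at least 2-fold counts as large. With 1 array per line no test was made and the number of arrays limits precision. Likeness between patterns was not computed, since 2 arrays give 1 difference per gene. Members, gene lists and settings were chosen with earlier results of these data known. The text names all 8 genes with every probe, all other JAK and STAT genes, and from each list genes above the higher floor by size of difference and intensity. Dim SOCS genes, dim ligands and dim receptors of the gp130 and interferon families, CEBPD, and CDX2, VIL1 and CDH1 were named after their values were seen. The code was tested on simulated data. Python 3.11.15, pandas 2.3.3, numpy 2.4.6 and statsmodels 0.14.6 (loess, span 0.3) were used. Alternatives covered the floor, probe choice, normalization and the fold threshold.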

Additional observations from a re-analysis of the deposited data

How the results depend on the processing

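No paired analysis was possible because each line has 1 array and no result comes from a test. The 8 single-gene log2 differences kept their sign under the higher floor, the offset of 46 in place of a floor, the mean of all probes, quantile normalization, median centring and loess removal. Of 50 such values, 47 moved by less than 1 standard deviation of the differences among genes of the same intensity range. The other 3 were JAK2 at the higher floor (-0.26) and IL6ST with the mean of all probes (-0.24) and with the second probe (-0.04). The count of genes at least 2-fold apart, 2 in the text, was 1 at the higher floor and 0 with the offset. It was 0 with second probes, 4 at 1.5-fold and 0 at 3-fold. Of the 8009 genes above the higher floor, 25 read lower in HCT-8/V by 2-fold or more, and 24 read higher by that much. For the offset, second probes, 1.5-fold and 3-fold no such background was computed, so these counts cannot be set against other genes. Second probes were read for STAT3 and IL6ST only, so 2 genes were lower and 0 higher there, and the median was -0.21. The median of the 8 genes lay between -0.18 and -0.45 over all alternatives. Of 82 list medians under alternatives, 6 moved by more than 1 standard deviation. At the higher floor these were JAK kinases (-0.26, from -1.04) and gp130 ligands (-0.48, IL6 alone). With second probes they were gp130 receptors (-0.87, over 2 of 6 genes) and interferon receptors (-0.24, over 3 of 6). Also moved with second probes were ligands outside the gp130 family (-0.46, over 2 of 10) and STAT5 and STAT6 targets (-0.53, over 5 of 11). Median centring shifts all differences by 0.03 and turned the median of the other cytokine receptors from 0.02 to -0.01. JAK2, SOCS3 and STAT6 lie close to background, which limits their precision.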

Other observations

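Outside the gp130 and interferon branches, the bright ligand and receptor genes differed by little. IL10, which encodes an anti-inflammatory cytokine that signals through JAK1, TYK2 and STAT3, read 9042 in the parental and 9776 in the resistant line on its brighter probe, and the other IL10 probe did not pass the floor in either. LEP, the leptin gene, read 1258 and 1609 (log2 difference 0.36), and its second probe went the other way (-0.56). CSF2RA, the GM-CSF receptor alpha chain, read 3984 and 4776 (0.26, and 0.16 on its second probe). IL13RA1, an IL-4 and IL-13 receptor chain, read 514 and 567, IL20RB 159 and 191, and EPOR, the erythropoietin receptor, which uses JAK2, 219 and 186 (-0.24).

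Of 15 PIAS, phosphatase and adaptor genes that were read, 11 were lower and 4 higher in HCT-8/V, where 47.1% of all expressed genes were lower. Their median log2 difference was -0.09, and the gap was within background noise for 9 of the 15. PIAS4, a SUMO ligase gene, read 512 and 663 (0.37), SH2B1, an adaptor that enhances JAK2 activity, 203 and 158 (-0.37), and PTPN2, a phosphatase of JAK1 and STATs, 134 and 113 (-0.25). PTPN1, which dephosphorylates JAK2 and TYK2, was nearly equal at 770 and 751, as was the phosphatase gene DUSP3 at 1062 and 990. PIAS2 read 162 and 122 (-0.41), and its second probe was lower as well (-0.44), while the mean of its probes turned this to 0.12. Among 6 transcription partners, the acetyltransferase gene CREBBP read 534 and 412 (-0.37), while EP300 was nearly equal (117 and 113) and the elongation kinase gene CDK9 was higher (437 and 568).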
